A study of Rattus norvegicus with 12 samples.

Results

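The matrix metalloproteinases Mmp2, Mmp3, Mmp9, Mmp11, Mmp12 and Mmp14 and the tissue inhibitors of metalloproteinases Timp1, Timp2, Timp3 and Timp4 were followed in heart muscle cell cultures of newborn rats exposed to the plasticiser DEHP, di(2-ethylhexyl) phthalate, which is used in polyvinyl chloride. These 10 genes, 6 proteases and 4 inhibitors, were chosen by symbol among the 14324 named genes of the array, with earlier results of these data known. Each was read by 1 probe set annotated with that gene alone. All cultures came from enzymatically digested hearts of 2-day-old Sprague-Dawley pups of a single litter, had grown on coated coverslips for 3 days, and were exposed for a further 3 days. The 4 groups received 0.1% DMSO alone (the vehicle), or DEHP at 1, 10 or 50 µg/ml in the same 0.1% DMSO, and each group had 3 Affymetrix arrays, 12 in all. The series describes the samples within a group as biological replicates. Because the litter was shared, a p-value reflects the spread among cultures of 1 litter.

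Matrix metalloproteinases are zinc-dependent enzymes that cut collagens, elastin, fibronectin and other parts of the extracellular matrix. Most are secreted as inactive precursors, whereas Mmp14 sits in the cell membrane, where it converts the Mmp2 precursor to its active form with Timp2 acting as the bridge between them. TIMPs block the active enzymes one to one, and in the heart this balance is known for its part in matrix turnover during growth and remodelling.

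The deposited values were linear ratios, each array set over the 12-array median of the probe set, so a ratio of 1 is the gene's own midpoint. That a larger ratio means more RNA was taken as read, since no source used here records the direction. The level of each gene was lost in this centring, so no gene could be set against another by level, and it could not be seen which genes, or which defining markers of heart muscle, lay near background. The arrays' medians ran from 0.994 to 1.01. The second array at 10 µg/ml stood apart, with an SD of its log2 ratios over all probe sets of 0.170 against 0.0967 and 0.0881 for the other arrays of that dose. Calls of the 10 genes between groups that changed when it was left out are given with and without it.

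Sequences upstream of 7 of the 10 genes were in the RefSeq promoter table of the GRCr8 rat build; Mmp2, Mmp9 and Mmp14 were not in it. The 250 bases before the transcript start of the promoter table are shown for 4 genes. For Mmp3 the annotated gene start, chr8:12925267, lies inside its window, so distances count from the promoter table's start. Mmp12 and Mmp3 lie in the same metalloproteinase gene cluster, and at 50 µg/ml Mmp12 passed and Mmp3 did not, and Mmp11 and Timp2 are the members with a listed promoter that were higher at that dose. The windows are chr8:12866402-12866651 (plus strand) for Mmp12, chr8:12925031-12925280 (plus strand) for Mmp3, chr20:12730034-12730283 (plus strand) for Mmp11 and chr10:104089215-104089464 (minus strand) for Timp2. Capitals mark the motifs TGANTCA (the AP-1 type site, of which TGAGTCA is the full consensus form) and TATAAA in Mmp12 and Mmp3, and GGGCGG or its complement CCGCCC in Mmp11 and Timp2.
Mmp12: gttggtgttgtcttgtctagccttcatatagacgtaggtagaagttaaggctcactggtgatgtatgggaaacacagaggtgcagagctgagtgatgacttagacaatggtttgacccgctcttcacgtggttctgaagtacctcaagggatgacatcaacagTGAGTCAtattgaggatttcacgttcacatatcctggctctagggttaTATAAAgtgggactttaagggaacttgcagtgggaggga
Mmp3: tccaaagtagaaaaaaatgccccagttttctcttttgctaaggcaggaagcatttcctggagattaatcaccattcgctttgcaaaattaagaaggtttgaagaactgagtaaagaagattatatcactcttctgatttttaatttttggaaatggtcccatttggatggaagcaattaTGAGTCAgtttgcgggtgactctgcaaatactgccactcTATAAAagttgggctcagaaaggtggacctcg
Mmp11: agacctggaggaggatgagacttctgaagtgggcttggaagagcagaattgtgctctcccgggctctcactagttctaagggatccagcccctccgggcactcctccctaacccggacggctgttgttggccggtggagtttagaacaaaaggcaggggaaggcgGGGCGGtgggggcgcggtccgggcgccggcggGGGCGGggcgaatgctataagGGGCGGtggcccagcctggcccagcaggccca
Timp2: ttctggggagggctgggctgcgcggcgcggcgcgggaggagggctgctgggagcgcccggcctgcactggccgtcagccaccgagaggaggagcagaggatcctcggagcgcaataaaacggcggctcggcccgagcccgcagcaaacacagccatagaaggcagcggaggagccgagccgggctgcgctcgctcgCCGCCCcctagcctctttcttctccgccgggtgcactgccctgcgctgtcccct

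The Mmp12 and Mmp3 windows each held 1 TGAGTCA, 87 bases before the start in Mmp12 and 71 bases before it in Mmp3, and 1 TATAAA, 39 and 32 bases before it. TGANTCA on either strand occurred in 6.34% of the 33469 promoters of the table, TGAGTCA in 4.05% and TATAAA in 12.9%. The Mmp11 window held 3 copies of GGGCGG and the Timp2 window 1, a motif found in 30.5% of promoters. The GC content was 45.6% for Mmp12, 38.8% for Mmp3, 66% for Mmp11 and 72% for Timp2, against a median of 51.2% over all promoters. TATAAA and GGGCGG were chosen after the sequences had been read, and these matches describe letters only.

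The proteases Mmp14, Mmp2, Mmp11 and Mmp9 and the inhibitor Timp2 were higher at 50 µg/ml than in the vehicle, and the elastase Mmp12 was lower. At 1 µg/ml Mmp9 alone passed, and it was lower. A gene was counted when its p-value from limma, after Benjamini-Hochberg adjustment across the 14324 genes, was under 0.05. Set against the vehicle, 6 of the 10 genes passed at 50 µg/ml, against 17.6% of all genes. Of these 5 were higher, against 8.75% of all genes, and 1 was lower, against 8.84%. The same number, 6 of 10, had arrays that did not overlap those of the vehicle, against 36.0% of all genes. With 1 µg/ml, 1 of 10 passed and was lower, against 4.24% of all genes passing and 1.74% lower, and 2 of 10 did not overlap the vehicle, against 30.8%. With 10 µg/ml limma called 0 of 10, against 0% of all genes, and 0 of 10 did not overlap, against 11.2%. There 0 of the 10 and 899 of all genes (6.28%) had an unadjusted p under 0.05. That dose gave 90 called genes in all with array weights and 15 after a repeated quantile normalization, and 0 of the 10 genes under either. The median log2 difference of the 10 genes from the vehicle was -0.05 at 1 µg/ml, 0.01 at 10 µg/ml and 0.17 at 50 µg/ml, beside 0.02 for all genes at 50 µg/ml. The 3 comparisons share the same vehicle arrays. Because the 10 genes were chosen with earlier results known, the shares of all genes, here and between doses, are a reference only. They do not test the set.

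**Figure D1:**
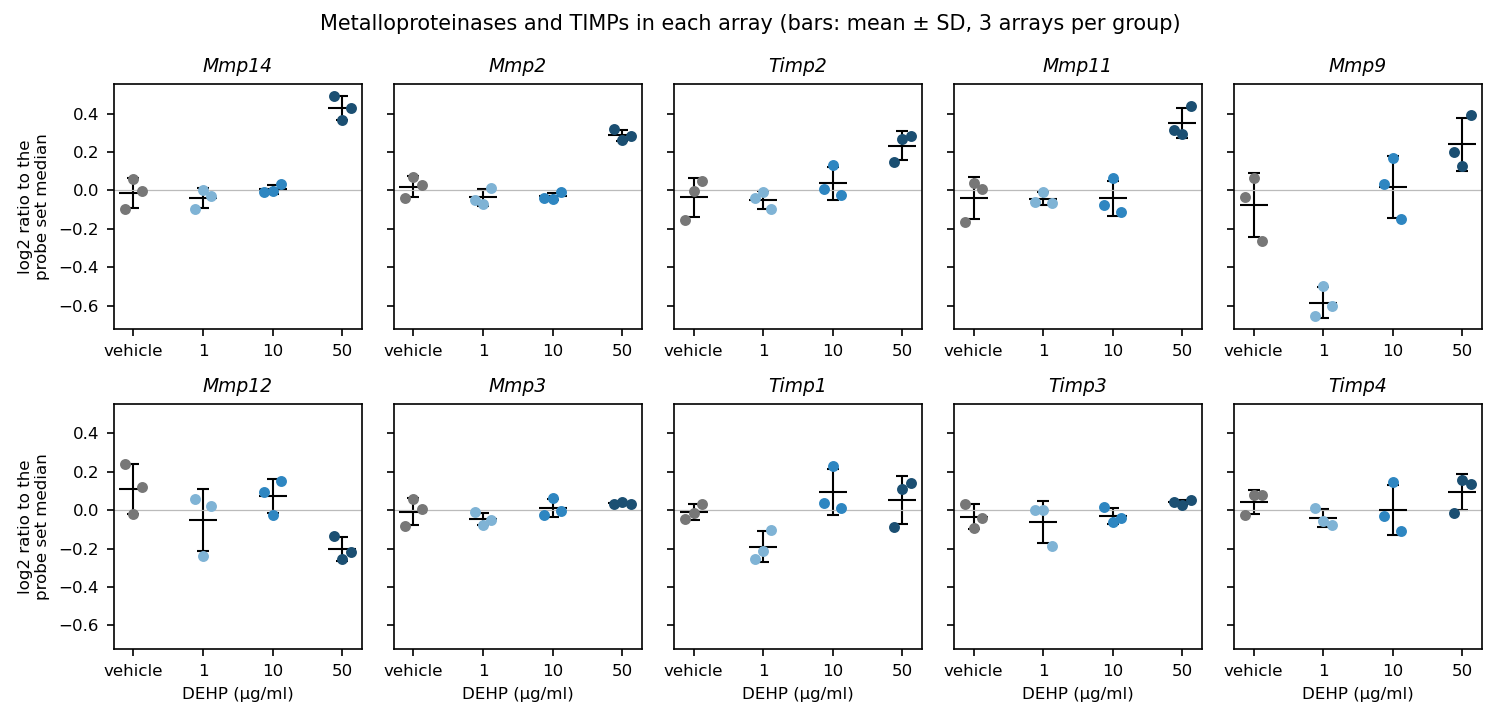
Log2 ratio of each array to the probe set's median (vertical axis) for the 10 genes in the vehicle and at 1, 10 and 50 µg/ml DEHP (horizontal axis). Points are the 3 arrays of a group and bars their mean ± SD. Mmp14, Mmp2 and Mmp11 sit near 0 up to 10 µg/ml and above every other array at 50 µg/ml, whereas Mmp9 is lowest at 1 µg/ml.

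Among the proteases, Mmp14, the membrane-type enzyme, had the largest rise of the 6 at 50 µg/ml. Its ratios were 1.41, 1.29 and 1.35 at 50 µg/ml, against 0.934, 1.04 and 0.997 in the vehicle. All 3 arrays at 50 µg/ml lay above all 9 others, and those at 1 µg/ml (0.936 to 1.00) and 10 µg/ml (0.993 to 1.02) lay within or close to the vehicle's range. The difference from the vehicle was 0.44 ± 0.05 on the log2 scale (SE, n = 3 each; limma adjusted p = 8.14e-05), a 1.36-fold rise. At the lower doses it was -0.03 (95% interval -0.14 to 0.09) at 1 µg/ml and 0.02 (-0.09 to 0.13) at 10 µg/ml.

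Mmp2, the gelatinase that Mmp14 activates, had ratios of 1.25, 1.20 and 1.22 at 50 µg/ml, against 0.972, 1.05 and 1.02 in the vehicle. The groups did not overlap, and the 1 and 10 µg/ml arrays ran from 0.951 to 1.01. The rise at 50 µg/ml was 1.21-fold (limma adjusted p = 0.00106), and the log2 differences were -0.05 at 1 µg/ml (95% interval -0.15 to 0.04) and -0.05 at 10 µg/ml (-0.15 to 0.05).

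Timp2, the inhibitor that links this pair, had ratios of 1.11, 1.20 and 1.22 at 50 µg/ml, against 0.900, 0.997 and 1.03 in the vehicle. The groups did not overlap, but the lowest array at 50 µg/ml stood close to the highest at 10 µg/ml, where the ratios were 1.00, 1.10 and 0.982. The rise over the vehicle was 0.27 ± 0.06 on the log2 scale (SE, n = 3 each; limma adjusted p = 0.0109). Without the first vehicle array it was 0.21 and missed the threshold (adjusted p = 0.0568; 0.00554 to 0.0568 over all alternatives). Timp2 overlaps Cep295nl in the rat annotation, and the probe set of Cep295nl fell at 50 µg/ml by 0.57 ± 0.12 on the log2 scale (adjusted p = 0.00422), opposite in sign to Timp2. Cep295nl also fell at 1 µg/ml, by 0.57 ± 0.12 (adjusted p = 0.0200), where the Timp2 difference was -0.01, and at 10 µg/ml it stood at 0.37 and did not pass.

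Set against Timp2 within an array, Mmp14 stood higher at 50 µg/ml than in the vehicle, and Mmp2 did not. The log2 ratio of Mmp14 minus that of Timp2 had a median of 0.14 at 50 µg/ml (0.10 to 0.35 over the 3 arrays), against 0.05 in the vehicle (-0.05 to 0.06). All 3 arrays at 50 µg/ml lay above the vehicle's for that difference. Mmp2 minus Timp2 had a median of 0.00 at 50 µg/ml (-0.01 to 0.17), against 0.07 in the vehicle (-0.02 to 0.11), and the groups overlapped. Mmp2 minus Timp3 ran from 0.23 to 0.27 at 50 µg/ml, against -0.07 to 0.16 in the vehicle, with no overlap. These are differences of ratios, not of amounts, and no test was made on them.

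Mmp11, or stromelysin-3, is activated inside the cell before secretion, unlike most of the family. It had ratios of 1.24, 1.23 and 1.36 at 50 µg/ml, against 0.893, 1.03 and 1.00 in the vehicle. No array at 50 µg/ml overlapped any of the 9 others, of which the highest was 1.04 at 10 µg/ml. The rise was 0.39 ± 0.07 on the log2 scale, or 1.31-fold (SE, n = 3 each; limma adjusted p = 0.00116). At 1 and 10 µg/ml the differences were both within 0.01 of 0, with 95% intervals of -0.15 to 0.14 and -0.14 to 0.14. Mmp11 overlaps the mitochondrial gene Chchd10, which did not pass (0.19 ± 0.07, adjusted p = 0.103).

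The calls of Mmp14, Mmp2 and Mmp11 at 50 µg/ml held under all 19 alternatives run for them, single omitted arrays included. Among these, the choice of 1 probe set per gene could not move their differences, since each had 1 probe set. In cultures of mixed cells, fewer cells of a type and less RNA per cell cannot be told apart. Over all genes 8.75% rose and 8.84% fell at 50 µg/ml, beside which the marker counts at that dose stand. At the same dose 0 of 14 fibroblast markers rose and 3 fell, led by Mfap5 (-1.14) and Thy1 (-0.57), with per-array medians of the list of -0.06 to -0.02 at 50 µg/ml and 0.01 to 0.02 in the vehicle. Of 7 measured epicardial and mesothelial markers 4 rose and 0 fell, led by Upk1b (0.80) and Gpm6a (0.75), with array medians of 0.19 to 0.31 at 50 µg/ml and -0.074 to -0.0047 in the vehicle. Of 14 heart muscle markers 8 rose and 1 fell, led by Myl7 (1.46) and Myh6 (0.63). Array medians of that list were 0.05 to 0.09 at 50 µg/ml and -0.18 to -0.03 in the vehicle. At 10 µg/ml they were 0.03 to 0.07, above the vehicle's, with 0 of the 14 called and 10 at an unadjusted p under 0.05. Of 9 smooth muscle and pericyte markers 3 rose and 4 fell at 50 µg/ml, led by Rgs5 (-0.78) and Kcnj8 (0.74). The part of any of these cell types in the rises of these proteases was not tested.

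**Figure D2:**
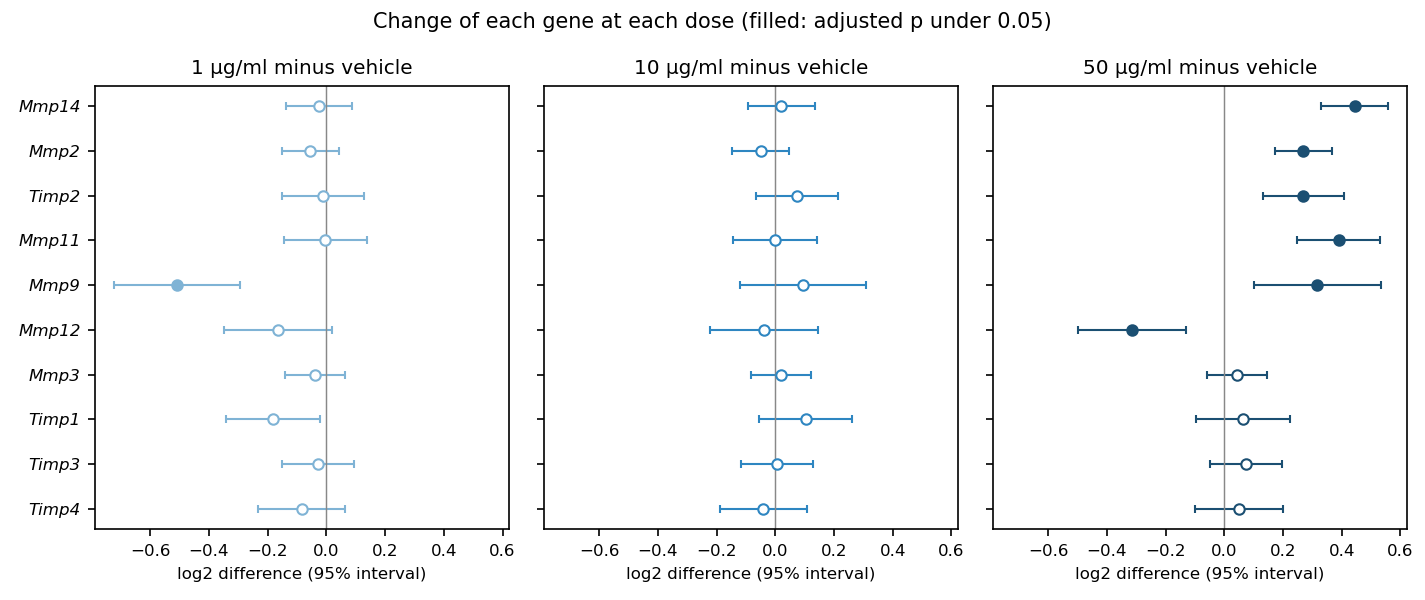
Log2 difference of each dose from the vehicle (horizontal axis) with its 95% interval for each of the 10 genes (vertical axis), from limma with 3 arrays per group. Filled points have an adjusted p under 0.05: Mmp9 at 1 µg/ml, none at 10 µg/ml, and Mmp14, Mmp2, Timp2, Mmp11, Mmp9 and Mmp12 at 50 µg/ml.

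Mmp9, the larger gelatinase and a secreted enzyme of leukocytes and vessel walls among other cells, was the member that departed from the vehicle in both directions. Its ratios were 0.977, 1.05 and 0.834 in the vehicle, 0.635, 0.708 and 0.659 at 1 µg/ml, 1.02, 1.13 and 0.902 at 10 µg/ml, and 1.15, 1.09 and 1.32 at 50 µg/ml. Every array at 1 µg/ml was below all 9 others, every array at 50 µg/ml was above every vehicle array, and the 10 µg/ml arrays overlapped the vehicle's. Mmp9 fell to 0.703 times the vehicle at 1 µg/ml (-0.51 ± 0.10 log2, adjusted p = 0.0161) and rose 1.25-fold at 50 µg/ml (0.32 ± 0.10, adjusted p = 0.0438; SE, n = 3 each, limma). At 10 µg/ml the difference was 0.10 (95% interval -0.12 to 0.31).

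Both of these calls were sensitive to single arrays. The call at 1 µg/ml was lost without vehicle replicate 1 or 2 or without replicate 1 or 3 at 1 µg/ml, with values from -0.50 to -0.44, and adjusted p ran from 0.00272 to 0.0724 over all alternatives. The call at 50 µg/ml was lost without vehicle replicate 1 or 3, any 1 µg/ml array, replicate 1 at 10 µg/ml, or replicate 1 or 3 at 50 µg/ml, and after a repeated quantile normalization, with values from 0.22 to 0.34 (adjusted p 0.0170 to 0.178 over all alternatives). The direct comparison between the doses held throughout: 50 µg/ml exceeded 1 µg/ml by 0.83 ± 0.10 (adjusted p = 0.000102) and 10 µg/ml exceeded 1 µg/ml by 0.60 ± 0.10 (adjusted p = 0.00373), and both calls were kept in all 19 alternatives.

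Endothelial markers moved with Mmp9 over these groups. Of 9 measured, 3 fell and 0 rose at 1 µg/ml, led by Cdh5 (-0.66) and Tie1 (-0.59), against 1.74% of all genes lower. At 50 µg/ml 5 rose and 1 fell, led by Cdh5 (0.57) and Emcn (0.42). The median of the list ran over the arrays from -0.03 to 0.05 in the vehicle, from -0.36 to -0.16 at 1 µg/ml, from -0.14 to 0.03 at 10 µg/ml and from 0.22 to 0.33 at 50 µg/ml. Among all other genes, those with the pattern most like Mmp9 were Sox18, Adgrl4 and Tie1, with root mean square differences of 0.11 between centred log2 ratios over the 12 arrays, and Sox18 and Tie1 were on the endothelial list. Each fell at 1 µg/ml, Sox18 by 0.47 and Adgrl4 by 0.58. At 50 µg/ml Sox18 rose by 0.33 (limma adjusted p = 0.026), whereas Adgrl4 (0.22) and Tie1 (0.14) did not pass. The part of endothelial cells in the Mmp9 values was not tested. The single-array omissions touch these markers too: the Cdh5 call at 1 µg/ml was lost without vehicle replicate 2 or replicate 3 at 1 µg/ml, that of Tie1 also without vehicle replicate 1 (adjusted p up to 0.0531 and 0.0544), that of Emcn at 50 µg/ml without any 1 vehicle array or replicate 2 or 3 at 50 µg/ml, and those of Cdh5 and Emcn at 50 µg/ml after a repeated quantile normalization (adjusted p up to 0.0540 and 0.264).

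Mmp12, the elastase known chiefly from macrophages, was the one member that fell at 50 µg/ml. Its ratios were 0.911, 0.839 and 0.859 at 50 µg/ml, against 1.18, 0.985 and 1.09 in the vehicle. The groups did not overlap, although 1 array at 1 µg/ml (0.849) was as low as those at 50 µg/ml while the other two there stood at 1.04 and 1.02. The fall was to 0.804 times the vehicle (-0.32 ± 0.08 log2, SE, n = 3 each; limma adjusted p = 0.0219), with differences of -0.16 at 1 µg/ml (95% interval -0.35 to 0.02) and -0.04 at 10 µg/ml (-0.22 to 0.15). The call was lost without vehicle replicate 1 or 3, without replicate 2 or 3 at 50 µg/ml, and after a repeated quantile normalization, with values from -0.31 to -0.25 (adjusted p 0.0025 to 0.102 over all alternatives).

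At that dose 20 of 21 measured markers of macrophages and other leukocytes fell and 0 rose, with a median difference of -1.07, led by Lyz2 (-2.32) and Csf1r (-1.78). The array medians of that list were -0.99 to -0.95 at 50 µg/ml and 0.16 to 0.26 in the vehicle. They ran from -0.25 to 0.098 at 1 µg/ml and from -0.067 to 0.14 at 10 µg/ml, both below the vehicle's range. The list's median difference from the vehicle was -0.23 at 1 µg/ml and -0.16 at 10 µg/ml. Of the 21, 3 fell at 1 µg/ml, led by Itgb2 (-0.37) and Laptm5 (-0.36), against 1.74% of all genes lower. At 10 µg/ml limma called 0, with 5 at an unadjusted p under 0.05. The Itgb2 call was lost without replicate 1 or 3 of the vehicle or of 1 µg/ml (adjusted p up to 0.0840), and the Laptm5 call without any 1 array of the vehicle or of 1 µg/ml, or replicate 1 or 3 at 50 µg/ml (up to 0.154). The Mmp12 difference of -0.32 stood beside that list median of -1.07, and the part of leukocytes in it was not tested.

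**Figure D3:**
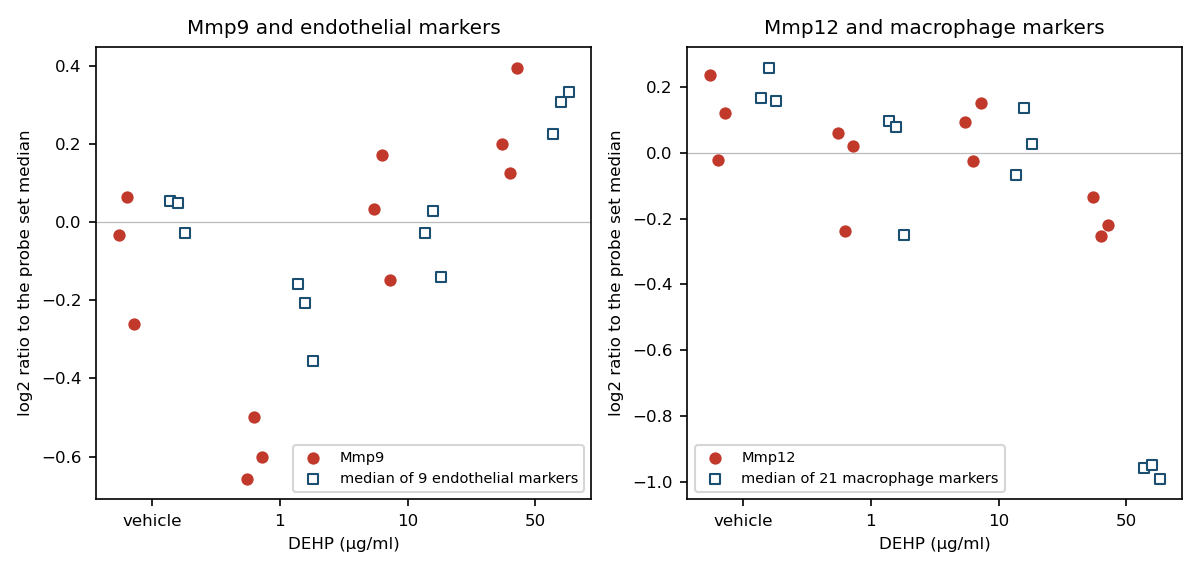
Log2 ratios to the probe set's median (vertical axes) by array at each dose (horizontal axes) for Mmp9 beside the median of 9 endothelial markers, and for Mmp12 beside the median of 21 macrophage and leukocyte markers. Filled circles are the protease and open squares the marker median in each of the 3 arrays of a group. Mmp9 and the endothelial median are both lowest at 1 µg/ml, and the macrophage median stands at -0.99 to -0.95 at 50 µg/ml.

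Mmp12 lies in a run of 10 metalloproteinase genes in the rat annotation, of which 9 were measured. At 50 µg/ml Mmp12 fell, Mmp10 rose by 0.19 ± 0.06 and the other 7 did not pass. One of those was Mmp3, stromelysin-1, a broad protease that also activates other metalloproteinases. Its ratios were 1.02, 1.03 and 1.02 at 50 µg/ml, against 0.943, 1.04 and 1.00 in the vehicle, and the groups overlapped. The difference was 0.04 (95% interval -0.06 to 0.15), and at 1 and 10 µg/ml it was -0.04 (-0.14 to 0.06) and 0.02 (-0.08 to 0.12). Mmp3 passed in none of the comparisons, and its upstream window shares with that of Mmp12 the TGAGTCA and TATAAA shown above.

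Among the inhibitors, Timp1, a secreted TIMP that binds the Mmp9 precursor, passed between doses and in no comparison with the vehicle. Its ratios were 0.968, 0.991 and 1.02 in the vehicle, 0.837, 0.862 and 0.933 at 1 µg/ml, 1.03, 1.17 and 1.01 at 10 µg/ml, and 0.941, 1.08 and 1.10 at 50 µg/ml. All 3 arrays at 1 µg/ml lay below the vehicle's, and the arrays of the higher doses overlapped the vehicle's. Against the vehicle the differences were -0.18 (95% interval -0.34 to -0.02; limma adjusted p = 0.188), 0.10 (-0.06 to 0.26) and 0.06 (-0.10 to 0.22) at 1, 10 and 50 µg/ml, and none passed.

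Between doses Timp1 was higher at 10 than at 1 µg/ml by 0.28 ± 0.07 (adjusted p = 0.0248) and higher at 50 than at 1 µg/ml by 0.24 ± 0.07 (adjusted p = 0.0285; SE, n = 3 each, limma). The first call was lost without replicate 1 or 2 at 1 µg/ml, without replicate 2 at 10 µg/ml, the array that stood apart (0.22, adjusted p = 0.0902), and in a fit of these groups only; adjusted p ran from 0.00861 to 0.0902. The second was lost without replicate 1 or 2 at 1 µg/ml or replicate 2 or 3 at 50 µg/ml, with values from 0.20 to 0.23 (adjusted p 0.00933 to 0.104). Within an array, Mmp9 minus Timp1 had medians of 0.01 in the vehicle, -0.40 at 1 µg/ml, -0.06 at 10 µg/ml and 0.25 at 50 µg/ml. It ran from -0.29 to 0.08 in the vehicle and from 0.02 to 0.29 at 50 µg/ml, which overlap, and from -0.50 to -0.28 at 1 µg/ml, which overlaps the vehicle by a single array.

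Timp3, the TIMP bound to the matrix, and Timp4, the TIMP known for its expression in heart, passed in no comparison. Timp3 had ratios of 1.03, 1.02 and 1.04 at 50 µg/ml, against 1.02, 0.938 and 0.971 in the vehicle, and a difference of 0.07 (95% interval -0.05 to 0.20). Timp4 had ratios of 0.991, 1.12 and 1.10 at 50 µg/ml, against 0.982, 1.06 and 1.06 in the vehicle, and a difference of 0.05 (-0.10 to 0.20). The groups overlapped for both genes. Timp1, Timp3 and Timp4 lie within the synapsin genes Syn1, Syn3 and Syn2, and these hosts differed from the vehicle at 50 µg/ml by -0.03, -0.04 and 0.08 and did not pass.

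Between the doses, 6 of the 10 genes were higher at 50 than at 1 µg/ml and 0 lower, against 24.9% of all genes past the threshold and 11.5% higher. These were Mmp14 (0.47), Mmp2 (0.32), Mmp11 (0.39), Mmp9 (0.83), Timp2 (0.28) and Timp1 (0.24), and 8 of the 10 did not overlap, against 40.9% of all genes. Between 50 and 10 µg/ml 4 passed, against 14.6% of all genes, and 6 did not overlap, against 26.2%. Mmp14 (0.42), Mmp2 (0.32) and Mmp11 (0.39) were higher there, against 7.75% of all genes higher, and Mmp12 stood at -0.28 (adjusted p = 0.0464), against 6.85% lower. Timp2 differed there by 0.20 (adjusted p = 0.0614), and without the array that stood apart, replicate 2 at 10 µg/ml, by 0.24 (adjusted p = 0.0225); it also passed without vehicle replicate 1 or replicate 1 at 50 µg/ml, with array weights (0.22, adjusted p = 0.0144) and with the replicate number as a block (0.0144 to 0.191 over all alternatives). The Mmp12 call was lost without vehicle replicate 3, replicate 3 at 1 µg/ml, replicate 1 or 3 at 10 µg/ml or any array at 50 µg/ml, and after a repeated quantile normalization, with values from -0.31 to -0.24 (adjusted p 0.00664 to 0.134).

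Between 10 and 1 µg/ml 2 of 10 passed, Mmp9 and Timp1, against 14.0% of all genes. Both were higher at 10 µg/ml, against 4.77% of all genes, and the same number did not overlap, against 30.4%. A linear trend over the order of the 4 groups passed for 5 genes, all upward, against 18.3% of all genes and 8.65% upward. They were Mmp14, Mmp9, Mmp11, Timp2 and Mmp2, with log2 slopes of 0.14, 0.16, 0.12, 0.09 and 0.08 per step between neighbouring groups. For all of these but Mmp9 the values up to 10 µg/ml lay close together, so the slope rests on the step to 50 µg/ml. Mmp9 did not rise in dose order, with mean log2 ratios of -0.08, -0.59, 0.02 and 0.24 from the vehicle to 50 µg/ml. Its slope draws partly on the low values at 1 µg/ml. A moderated F statistic over the 4 groups passed for 7 of the 10, which left out Mmp3, Timp3 and Timp4, against 27.2% of all genes; without replicate 2 or replicate 3 at 50 µg/ml 4 passed.

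The genes with patterns most like the other members were found in the same way as for Mmp9. Root mean square differences over the 12 arrays were 0.03 to 0.04 for Nrp1, Grina and Tpcn1 beside Mmp14, 0.04 to 0.05 for Fam43a, Oaf and Igfbp7 beside Mmp2, and 0.04 to 0.06 for Smo, Ubqln2 and Slc6a8 beside Mmp11. They were 0.05 for Ap3d1, Csf1 and Sgta beside Timp2, 0.05 to 0.06 for Snrpd2, Srebf2 and Slc25a1 beside Timp1, and 0.06 to 0.08 for Snrnp48, Zfp672 and Tmem80 beside Mmp12. None of these genes is on a marker list used here.

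Of the other matrix metalloproteinases of the rat, 14 of 18 listed were measured. At 50 µg/ml 3 rose and 0 fell, against 8.75% and 8.84% of all genes. The median difference was 0.05 beside 0.02 for all genes. Mmp15, a membrane-type relative of Mmp14, rose by 0.80 ± 0.07 (adjusted p = 6.66e-06), more than any of the 6 proteases described above. Mmp17, a membrane-anchored enzyme, rose by 0.34 ± 0.09 (adjusted p = 0.0239), and Mmp10, stromelysin-2, by 0.19 ± 0.06 (adjusted p = 0.0473; SE, n = 3 each, limma). The membrane-type Mmp16 had a difference of 0.31 ± 0.10 with an adjusted p of 0.0506. At 1 and 10 µg/ml its differences from the vehicle were 0.24 and -0.18, and neither passed. Between doses Mmp16 was lower at 10 than at 1 µg/ml (-0.43, limma adjusted p = 0.0183) and higher at 50 than at 10 µg/ml (0.50, adjusted p = 0.00522). It did not pass between 50 and 1 µg/ml (0.07), and no alternative was run for the Mmp16 values. The Mmp17 call was lost without any 1 vehicle array or replicate 1 or 2 at 50 µg/ml (0.27 to 0.43, adjusted p 0.00684 to 0.0951), and the Mmp10 call without any 1 array of the vehicle or of 1 µg/ml, or replicate 1 or 2 at 50 µg/ml (0.16 to 0.24, adjusted p 0.0127 to 0.149). At 1 and 10 µg/ml limma called 0 of the 14, with 2 and 1 at an unadjusted p under 0.05.

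**Figure D4:**
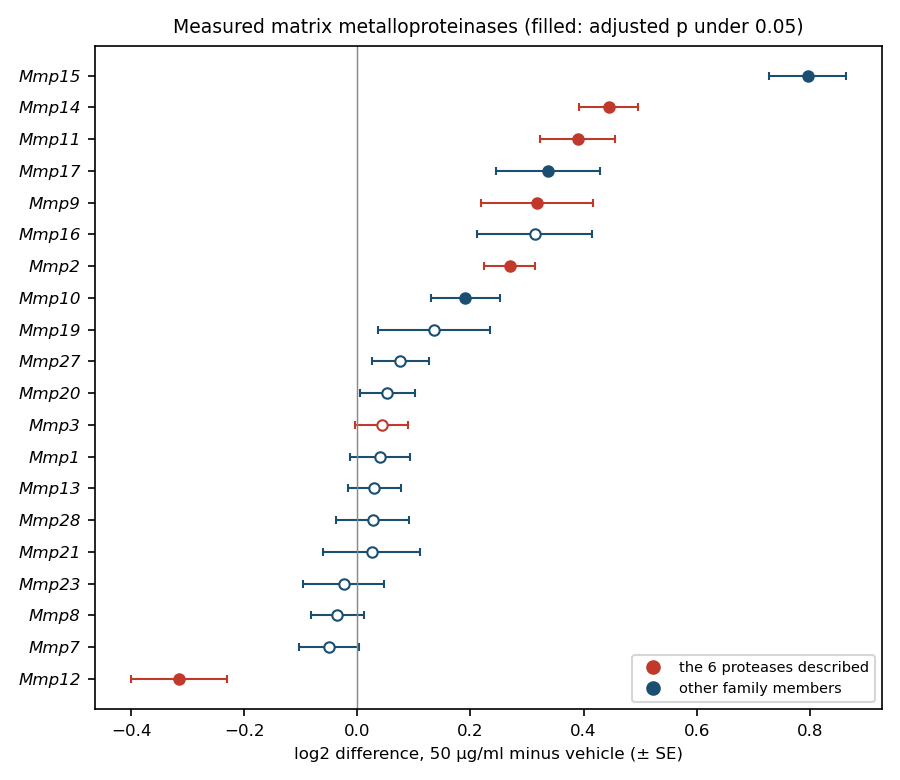
Log2 difference between 50 µg/ml and the vehicle (horizontal axis, ± SE, 3 arrays per group) for the 20 measured matrix metalloproteinases (vertical axis, in order of the difference). Filled points have an adjusted p under 0.05; Mmp15 is at the top with 0.80 and Mmp12 at the bottom with -0.32.

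Of 28 listed ADAM and ADAMTS proteases, which shed membrane proteins or cut proteoglycans and procollagen, 15 were measured. At 50 µg/ml 4 rose and 0 fell, against 8.75% and 8.84% of all genes, with a median of 0.06. These were Adamts9 (0.43), Adamts15 (0.35), Adamts12 (0.33) and Adamts14 (0.27). The calls of Adamts14 and Adamts15 were lost without vehicle replicate 1 or 3 or replicate 1 or 3 at 50 µg/ml, and that of Adamts15 also after a repeated quantile normalization (adjusted p up to 0.0827 and 0.245). Limma called 0 of the 15 at 1 and 10 µg/ml, with 5 and 1 at an unadjusted p under 0.05.

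Of 24 listed activators, receptors and other inhibitors of matrix proteolysis 23 were measured. At 50 µg/ml 3 rose and 5 fell, against 8.75% and 8.84% of all genes, with a median of 0.04. Plau, the urokinase that starts the plasmin cascade, fell by 1.27 ± 0.09 on the log2 scale (adjusted p = 1.01e-06). The inhibitor A2m, which traps proteases of all classes, was lower by 2.51 ± 0.24 on that scale (adjusted p = 1.68e-05). Over the 19 alternatives the A2m call held, with differences from -2.75 to -1.49. Cathepsin S (Ctss), a lysosomal elastase of macrophages, fell by 1.36 ± 0.08 (adjusted p = 2.02e-07), beside the fall of 20 of 21 macrophage markers given above. The convertase Pcsk6 (-0.35) and cathepsin B (Ctsb, -0.21) also fell.

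Those that rose were the Kunitz inhibitor Tfpi2 (0.70 ± 0.10), basigin (Bsg, 0.20 ± 0.04), a surface protein known to induce metalloproteinases, and cathepsin L (Ctsl, 0.24). The Ctsl call was lost without any 1 vehicle array, replicate 1 at any dose or replicate 3 at 50 µg/ml, and after centring or a repeated quantile normalization (adjusted p 0.0108 to 0.133). Reck, a membrane-anchored inhibitor of Mmp14, Mmp2 and Mmp9, differed by 0.10 ± 0.06, the urokinase receptor Plaur by -0.02 ± 0.08 and the activator Plat by 0.17 ± 0.07, and none of these passed against the vehicle at any dose. Between doses Plat was lower at 10 than at 1 µg/ml (-0.29, adjusted p = 0.0201) and higher at 50 than at 10 µg/ml (0.33, adjusted p = 0.00654), and Plaur was higher at 10 than at 1 µg/ml (0.29, adjusted p = 0.0304); no alternative was run for these 3 values. The lowest dose had a fall of Plau by 0.41 ± 0.09 (adjusted p = 0.0242), a call lost without vehicle replicate 1 or 2 or replicate 2 or 3 at 1 µg/ml (up to 0.0985). Lrp1, the receptor that clears complexes of proteases and inhibitors, fell there by 0.26 ± 0.07 with an adjusted p of 0.0496, which lay above the threshold in 12 of 19 alternatives, 9 of which left out 1 array (any of the vehicle or of 50 µg/ml, replicate 1 or 3 at 1 µg/ml, or replicate 1 at 10 µg/ml; 0.0125 to 0.169).

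Of 36 listed matrix proteins that these enzymes cut, 23 were measured. At 50 µg/ml 1 rose and 6 fell, against 8.75% and 8.84% of all genes, with a median of -0.09. Elastin (Eln) rose by 0.43, while the microfibril protein Ltbp2 (-1.22 ± 0.08), the proteoglycan versican (Vcan, -0.73 ± 0.08), Ltbp1 (-0.57), the basement membrane protein nidogen-2 (Nid2, -0.53), the collagen chain Col5a2 (-0.46) and fibronectin (Fn1, -0.16) fell. The Fn1 call was lost without any 1 vehicle or 50 µg/ml array or replicate 1 at 1 µg/ml, after a repeated quantile normalization and with the replicate number as a block (adjusted p 0.0282 to 0.131). Ltbp2 also fell at 1 µg/ml, by 0.32 (adjusted p = 0.0399), which was lost without any 1 vehicle array, replicate 1 or 3 at 1 µg/ml, or replicate 1 at 10 or at 50 µg/ml (0.00798 to 0.133). At 10 µg/ml limma called 0 of the 23 matrix proteins and 0 of the 23 regulators, with 2 and 4 at an unadjusted p under 0.05. A change in RNA of a protease or its substrate does not measure the activity of either.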

How the data were processed

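Affymetrix arrays of 12 cultures were used. Per the submitters' processing notes the authors processed them with RMA (robust multi-array average; version not stated). They deposited linear ratios, whose scale and centring were found from the values, since the log2 midpoint of the 6th and 7th of 12 values was within 4.8e-07 of 0 for every probe set.

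Ratios were converted to log2, and probe sets of a gene were averaged. Of 27342 probe sets, 15097 had 1 gene symbol in the platform annotation, 323 had several and 11922 had none. Groups came from the sample labels. Group means were fitted to all 12 arrays with limma 3.58.1 in R 4.3.3 (8 residual degrees of freedom, two-sided tests, Benjamini-Hochberg over 14324 genes, threshold 0.05). The trend scored the groups in dose order. The fit was tested on simulated data. A filter on dim probe sets, a background correction and scan batches could not be examined from ratios.

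The members and gene lists were chosen with earlier results of these data known. Named were all 10 members, the 6 largest changes of 4 pathway lists at 50 µg/ml and the 3 largest at each lower dose, the plasminogen system, A2m, Reck and Bsg where measured, the 2 largest of each marker list, and for each member past the F test the 3 genes of smallest root mean square difference over centred log2 ratios. Other pathway genes past the threshold and the rest of the metalloproteinase family were added after their values were seen. Promoters were scanned on both strands. Alternatives were a repeated quantile normalization, centring, fits of the compared groups alone, robust moderation, array weights, a replicate block, 1 probe set per gene, and each array left out in turn.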

Additional observations from a re-analysis of the deposited data

Results flagged for a closer look

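Mmp9 differed between the highest and the lowest dose by 0.83 on the log2 scale (limma adjusted p = 0.000102). It is listed because all 3 arrays at 50 µg/ml lay above every vehicle array and all 3 at 1 µg/ml lay below every vehicle array. The difference stayed between 0.75 and 0.88 over all alternatives.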

How the results depend on the processing

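Of 24 member values past the threshold, 17 stayed past it under all alternatives and 0 changed sign. The choice of 1 probe set per gene could not move member differences, since each member had 1 probe set. At 1 µg/ml against the vehicle, 608 genes became 1139 after a repeated quantile normalization, 1661 with the compared groups only and 1772 with array weights; leaving out 1 array gave 176 to 1282 genes (1282 without the second array at 10 µg/ml) and 0 to 1 members. At 10 µg/ml 0 genes became 15 and 90 after quantile normalization and with array weights, and 0 to 1 with 1 array left out. At 50 µg/ml 6 members became 3 without vehicle replicate 1 (3 to 6 over single omissions). Between 10 and 1 µg/ml 2001 genes became 697 with the compared groups only and 3155 with weights, and 820 to 2694 with 1 array left out, with 1 to 2 members; the compared groups only gave 1 member. Between 50 and 1 µg/ml 3562 genes became 2321 after quantile normalization, and between 50 and 10 µg/ml 2091 became 1312 with the compared groups only and 3457 with weights. The trend gave 2622 genes, and 1691 to 3036 with 1 array left out, and the F statistic 4 to 7 members. Sizes moved as well where calls held. At 50 µg/ml against the vehicle A2m ran from -2.75 to -1.49 over all alternatives, but from -2.75 to -2.31 with 1 array left out. Over all alternatives Lyz2 ran from -2.40 to -1.43, Ctss from -1.41 to -0.88 and Ltbp2 from -1.26 to -0.79. Why the counts and sizes moved was not tested.

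Sign changes touched only members that had not passed, with values near 0. After quantile normalization Mmp11 and Timp2 at 1 µg/ml stood at 0.035 and 0.023, and between 10 and 1 µg/ml Mmp2, Mmp11 and Timp4 at -0.00175, -0.039 and -0.0027. After centring, Mmp11 at 1 µg/ml was 0.00169, and between 10 and 1 µg/ml Mmp2 and Mmp11 were -0.00219 and -0.00554. With array weights Mmp3 at 10 µg/ml was -0.00829, Mmp11 between 10 and 1 µg/ml -0.030 and Timp1 between 50 and 10 µg/ml 0.00343. With 1 array left out, at 1 µg/ml Mmp11 ran from -0.065 to 0.036, Mmp14 from -0.067 to 0.011, Timp2 from -0.070 to 0.030 and Timp3 from -0.060 to 0.034. At 10 µg/ml Mmp3 ran from -0.019 to 0.052, Mmp11 from -0.063 to 0.038, Mmp12 from -0.11 to 0.024, Mmp14 from -0.021 to 0.057, Timp3 from -0.024 to 0.039 and Timp4 from -0.11 to 0.013. Between 10 and 1 µg/ml Mmp2 ran from -0.013 to 0.029, Mmp11 from -0.050 to 0.037, Timp3 from -0.028 to 0.066 and Timp4 from -0.029 to 0.097, and between 50 and 10 µg/ml Timp1 from -0.084 to 0.031.

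The replicate numbers were shared by the groups, and 6 of 18 same-numbered pairs of arrays had a correlation of deviations over 0.1 (-0.23 to 0.43). The numbers thus showed no consistent pairing, although these correlations cannot exclude one, and the main fit used none. With the replicate block 2540 genes and 6 members passed at 50 µg/ml, and Timp2 between 50 and 10 µg/ml passed (adjusted p = 0.0479), as did the Mmp12 trend (0.00805). TGAGTCA in place of TGANTCA was in 4.05% of promoters. Each group had 3 arrays, which limits precision, and no signal over background could be judged.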
